A study of Homo sapiens with 6 samples.

Results

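The m7G peaks described here are all 9450 regions that the authors listed as pulled down by an m7G antibody in DLD1 cells, an established human colorectal cancer line, with 1 peak for each listed gene. Every listed peak was kept, with no filter on its values. The quantity described is how far the immunoprecipitate (IP) exceeded the input at each peak, and not the change between the cell lines. Of the 21519 genes in the series' co-culture expression table, 9321 had a listed peak and 12198 had none, and 129 peak genes were outside that table. The peak table came from 4 of the 6 libraries: an input and an m7G IP of DLD1 control cells (sh-NT), and an input and an m7G IP of DLD1 cells with METTL1 knockdown by a single construct (sh2). The other 2 libraries were RNA-seq of DLD1 cells of wild-type genotype, titled DLD1-W13CM and S-CAFs-w13 (S-CAFs are the co-cultured fibroblasts, and the title DLD1-W13CM does not name a co-culture). All cells were kept in DMEM with fetal bovine serum. The series' design text speaks of 2 replications of knockdown and control cells, but the labels give each group 1 library, so no value below has a replicate check and no test across libraries was possible. Over which libraries the fold enrichment was computed is not stated, and a peak of the knockdown line cannot be told from a peak of the control line in it.

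7-methylguanosine (m7G) is a methylated form of guanosine. It forms the cap at the 5′ end of mRNA, where eIF4E binds it to begin translation and where it protects the RNA from decay. Inside RNA, the METTL1 and WDR4 enzyme writes it into the variable loop of a set of tRNAs, and internal m7G in mRNA has been described as well. An antibody against m7G can bind cap and internal m7G alike, and whether caps were removed before the pull-down is something the sources used here do not give. Mitochondrial mRNAs carry no such cap, and replication-dependent histone mRNAs are capped but have no poly(A) tail.

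Enrichment is set below against the distance from the annotated start of the gene, so the RefSeq sequence at that position is shown for the 4 peaks of highest enrichment that covered a start with a RefSeq promoter entry. Each stretch runs 5′ to 3′ on the gene's strand in GRCh38.p14, with 10 bases before the start in lower case and 20 bases from the start in capitals. The stretches lie at chr10:7788167-7788196, chr20:16730016-16730045, chr16:22297399-22297428 and chr12:111842218-111842247, all on the plus strand.
ATP5C1: tgaggcctgcCTGACCGACCTTCAGCAGGG
SNRPB2: ggctccgtttCCTGCTTTTGGTTCTTACAG
POLR3E: gctcccccccACGTGTCCGCCGGAGTTTCT
MAPKAPK5: cggcgcgggtGTCCCGGCGATGTGTGGCGC
For contrast, the same stretch is given for 4 protein-coding genes that had no listed peak although their FPKM in DLD1-W13CM was the highest among nuclear genes of that kind with a promoter entry. They lie at chr19:3985444-3985473 (minus strand), chr6:30720342-30720371 (plus), chr1:8878667-8878696 (minus) and chr4:186726677-186726706 (minus).
EEF2: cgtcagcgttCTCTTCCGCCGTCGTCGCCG
TUBB: tcctttctccCTCTCAGAACCTTCCTGCCG
ENO1: cggcgcggacAGTATCTGTGGGTACCCGGA
FAT1: ggaaagaggcAGCGAGTCGCCGCAGCCGGC

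Over all peaks, the fold enrichment had a median of 12.4 in the authors' deposited table, from which every enrichment below is taken, with quartiles of 6.95 and 21.1 and a range from 1.11 to 281. At least 10-fold enrichment was reached by 5643 peaks, which is 59.7% of the 9450. The enrichment's own FDR, read from its deposited log10, was above 0.05 for 320 peaks (3.39%) and had a log10 of -10 or lower for 5466 (57.8%). The 3 highest enrichments were in ATP5C1 at 281, a subunit of the mitochondrial ATP synthase, SNRPB2 at 192, a protein of the U2 small nuclear ribonucleoprotein, and POLR3E at 182, a subunit of RNA polymerase III. MAPKAPK5 and SEC11C followed at 173 each, then MAPKAPK5-AS1 at 172, FBXO34 at 164, GSR (glutathione reductase) at 160, HAX1 at 153 and GCOM1 at 149. In 8 of these 10 peaks a block of the peak lay over the RefSeq start, the exceptions being MAPKAPK5-AS1 and GCOM1. The 5 lowest were HNRNPA1 at 1.11, IPO7 at 1.16, CLTA at 1.17, EBNA1BP2 at 1.18 and DHX9 at 1.2, and each of these lay in coding sequence more than 1000 nt downstream of the start. GCOM1's peak lay in the region of the peak of POLR2M (147), a gene it overlaps, and reads of such genes cannot be told apart. As for input, ATP5C1 had 18.7 FPKM in control input and 24.1 in knockdown input, SNRPB2 10.5 and 9.73, and HNRNPA1, an abundant RNA-binding protein, 267 and 266.

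The annotated location of a peak went with its enrichment. At least 10-fold enrichment was reached by 72.3% of the 4680 peaks in 5′ UTRs, 72.7% of the 33 at a start codon, 49.4% of the 2784 in coding sequence and 47.4% of the 1758 annotated only as exon. Among the 195 peaks in 3′ UTRs it was 13.3%. The upper quartile told the same order: 24.4 for 5′ UTR peaks, 18.4 for coding-sequence peaks, 15.9 for exon peaks and 6.95 for 3′ UTR peaks. Control input was of like size in the UTRs, with a median of 6.87 FPKM for 5′ UTR peaks and 8.37 for 3′ UTR peaks.

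Most peaks stood at or near the 5′ end of their gene, but not those annotated to the 3′ UTR. A RefSeq start on the same chromosome and strand could be assigned to 9111 peaks (96.4%), and a block of the peak covered that start in 4709 of them. The 5′ edge of the peak lay within 50 nt of the start in 39.7% of peaks and within 250 nt in 64.2%, and the median position of the edge was 4 nt upstream of the start, at -4. Peaks over the start had a median enrichment of 16.9, and 79.3% of them reached 10-fold. The median was 10.9 in the 1663 peaks whose edge lay 1 to 250 nt downstream, 7.795 in the 606 at 251 to 1000 nt, and 3.43 in the 1775 more than 1000 nt downstream, of which 19.7% reached 10-fold. The remaining 358 peaks began upstream of the start without a block over it and had a median of 13.2. RefSeq names 1 start per gene here, so a peak counted as downstream can lie at the start of a shorter transcript.

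By class of distance from the start, locations differed little over the start. More than 1000 nt downstream, coding-sequence, exon and 3′ UTR peaks lay close together, below 5′ UTR peaks. That class has no upper limit, so distance is not held within it. Over the start, the median enrichment was 17.1 for 3003 peaks annotated to the 5′ UTR, 16.8 for 1135 in coding sequence, 14.9 for 531 in exons and 17.5 for 14 in 3′ UTRs. More than 1000 nt downstream it was 9.93 for 319 peaks in 5′ UTRs, 2.75 for 904 in coding sequence, 3.51 for 383 in exons and 2.82 for 168 in 3′ UTRs. 41.2% of coding-sequence peaks covered the start and 32.8% lay more than 1000 nt downstream, whereas 88.9% of 3′ UTR peaks lay that far. The highest 3′ UTR enrichment, 76.5, was in SIRT7, which encodes a nuclear NAD-dependent deacylase, and its peak was among the 14 with a block over the RefSeq start. In coding sequence the 5 highest were GSR at 160, ICMT at 134, BNIP3L and RRP1B at 131 each and ALG5 at 123, all with a block over the start.

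**Figure D1:**
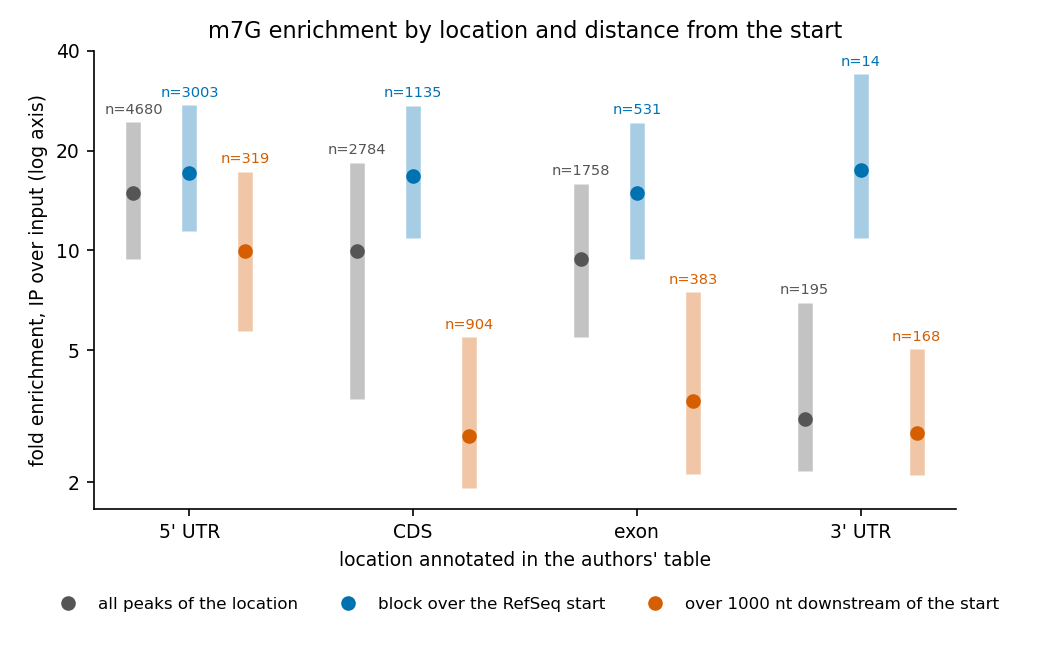
Fold enrichment (log axis) for 4 annotated locations, with points at the median and bars from the lower to the upper quartile over peaks: all peaks of a location in grey, those with a block over the RefSeq start in blue and those more than 1000 nt downstream in orange. The blue medians lie between 14.9 and 17.5, while the orange ones fall from 9.93 in 5′ UTRs to 2.75 in coding sequence.

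In finer steps, enrichment was highest for peaks that began somewhat upstream of the annotated start. The 327 peaks whose 5′ edge lay 100 to 75 nt upstream had a median of 22.5, and the 627 at 75 to 50 nt upstream one of 19.9. It was 14.1 for the 1119 peaks beginning in the last 25 nt before the start and 12.3 for the 1072 beginning in the 25 nt after it. Medians of 9.93 to 10.4 held from 25 to 400 nt downstream, and 2.71 was reached at 25600 to 51200 nt. Distances were taken along the genome, so introns count toward them.

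**Figure D2:**
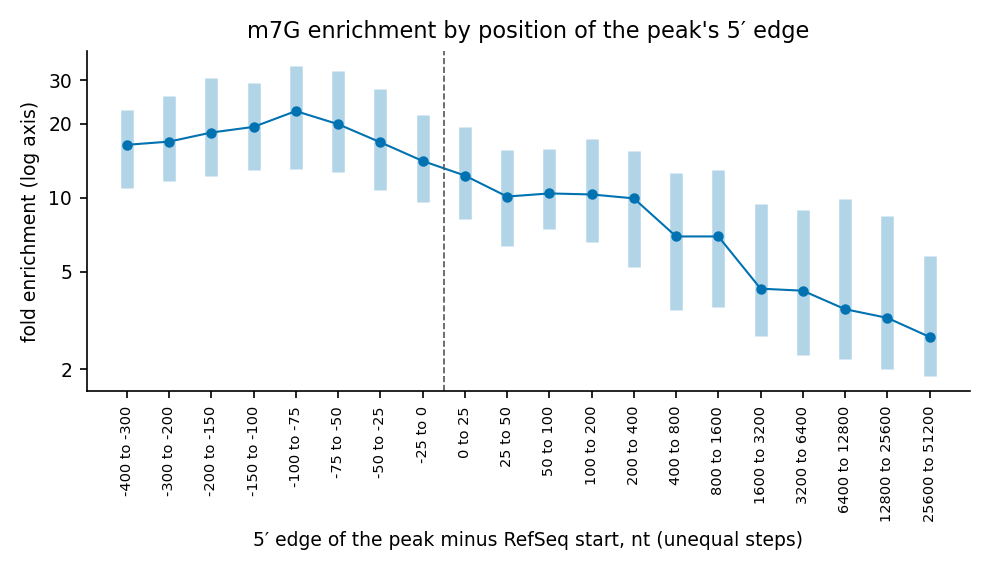
Median fold enrichment (points, log axis) with quartiles (bars) over peaks, by the position of the peak's 5′ edge relative to the RefSeq start in nt, in unequal steps; the dashed line marks the start. The median peaks at 22.5 for edges 100 to 75 nt upstream and declines to 2.71 at the farthest step.

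The base composition of the start region varied little with enrichment. Among the 3735 protein-coding peaks over a start of the RefSeq promoter table, whose window holds 250 bases before and 50 after the start, the median enrichment rose from 15.5 in the quintile of lowest GC content (27.7 to 58.7%) to 18.35 in the quintile of highest (73.3 to 87%). The motif AAGGT, on either strand, was present in the 50 bases after the start for 4.55% of these peaks, against 4.52% of 11188 protein-coding windows, and the peaks with it had a median of 15.7 against 17.2 without. GAGGT was present for 9.91% of the peaks (9.87% of windows), with medians of 16.9 with and 17.2 without, and GGAGG for 25.5% (25.9% of windows), with medians of 16.85 and 17.3. AAGGT and GAGGT share their last 4 bases and GGAGG can overlap GAGGT; a match describes letters only. A start of C followed by 4 pyrimidines, the form of the terminal oligopyrimidine (TOP) tract that ribosomal protein mRNAs carry, was found for 223 peaks (5.97%, against 5.32% of windows), and their median was 19 against 17.1 for the others.

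Wider peaks had higher enrichment. Summed over blocks, peaks were 102 to 2238 nt wide with a median of 271, and 84.2% of the widths were within 1 nt of a multiple of 30. From the narrowest quintile to the widest, the median enrichment was 6.76, 9.93, 15.5, 17.9 and 17.4, and the share at 10-fold or more was 24.6% in the narrowest quintile and 81.1% in the widest. Spearman's rho between width and enrichment was 0.48 over the 9450 peaks and 0.32 over the 4709 that covered the start. Both come from the same peak calling and the same libraries. The widest peaks were not the most enriched: C22orf46, at 2238 nt, had 3.87, FKBP2, an endoplasmic reticulum prolyl isomerase, 11.2, the intestinal stem cell transcription factor ASCL2 13.1, EIF5B 3.25 and NAA38 12.9.

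Over all peaks, enrichment hardly varied with input level, with a Spearman's rho of -0.00079 between enrichment and control input FPKM. FPKM is a read density per gene length and library size, and the medians over quintiles of control input were 10.9, 12.4, 13.2, 13.3 and 12.45. The distance groups behaved differently from this sum. Over the start, the median rose from 13.9 in the lowest quintile of input to 18.9 in the fourth and was 17.5 in the highest, with a rho of 0.13 over 4709 peaks. More than 1000 nt downstream it fell at every step, from 7.94 through 5.56, 3.36 and 2.8 to 2.07, with a rho of -0.46 over 1775 peaks. In the highest quintile of input, peaks over the start thus had 17.5 where peaks far downstream had 2.07. Input is the denominator of the enrichment, so these relations share a library. Only listed peaks enter these medians, so any low enrichment left unlisted at low input is missing from them. More than 1000 nt downstream, the lowest listed enrichment was 1.45 in the lowest quintile of input and 1.11 in the highest. How far the listing of peaks shapes the fall was not tested.

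**Figure D3:**
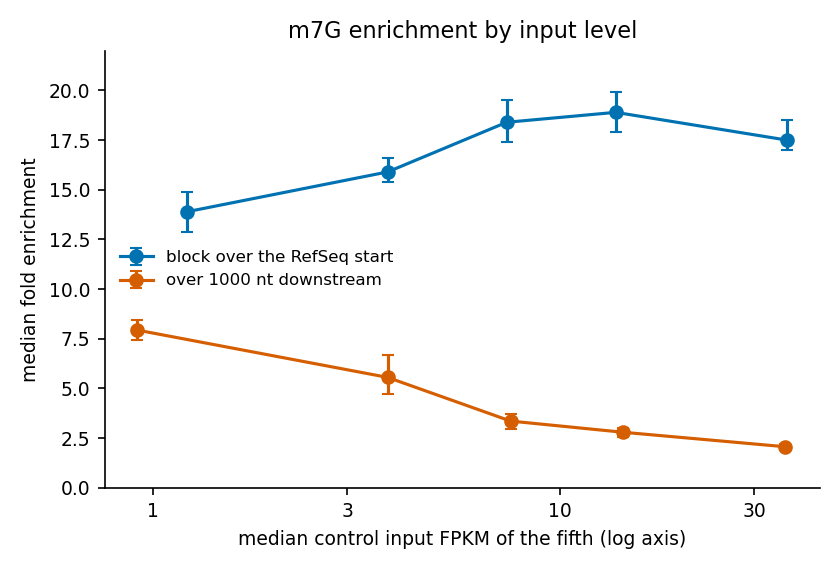
Median fold enrichment against the median control input FPKM (log axis) of 5 groups of equal size by input, for peaks over the RefSeq start (blue) and peaks more than 1000 nt downstream (orange); bars are exact 95% intervals of the median that count peaks only. The blue medians lie at 13.9 to 18.9 and the orange ones fall from 7.94 to 2.07.

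Of the peaks, 8528 (90.2%) were in protein-coding genes, with a median enrichment of 12.7, and the 922 others had a median of 9.93. Antisense RNAs followed with 425 peaks and a median of 10.4, and long intergenic RNAs with 225 and 9.43. Transcribed unprocessed pseudogenes had 78 peaks at 12.4, processed transcripts 63 at 10.4, transcripts awaiting experimental evidence (TEC) 33 at 7.94, transcribed processed pseudogenes 22 at 8.69 and processed pseudogenes 27 at 3.84. Processed pseudogenes are intronless copies of other genes' mRNA, so reads of their parent genes cannot be told apart from theirs. Whether the same holds for transcribed unprocessed pseudogenes was not tested. Noncoding peaks had a median of 12.4 where they began upstream with no block over the start (46 peaks), 11.9 over the start (181), 9.43 at 1 to 250 nt downstream (234), 8.94 at 251 to 1000 nt (90) and 7.2 beyond (74). The highest antisense peaks were HCG18 at 73.5 and SNHG7, a small nucleolar RNA host gene, at 68. In 116 of the 425 antisense peaks (27.3%), at least 50% of the shorter peak was shared with a peak of a gene on the opposite strand, against 3.55% of protein-coding peaks. The sources used here give no strand setting for the counting, so such partners cannot be told apart: the peaks of MAPKAPK5 (173) and MAPKAPK5-AS1 (172) are an example of near-equal values on opposite strands.

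Small RNAs gave few peaks. There were 11 in small nuclear RNA genes, with a median of 5.35, and they belong to copies of U1 and U2 that share reads and are uncertain one by one. RNU1-120P was the highest of them at 31, and a U2 gene had 12.1, with 346 FPKM in control input and a listed 0 in knockdown input. The peak table's single small nucleolar RNA peak, in a U3 gene with 17.6 FPKM in control input and 22.4 in knockdown input, had 7.12. A 5.8S ribosomal RNA gene, RNA5-8SN4, had 66415 FPKM in control input and an enrichment of 2.33. The nuclear noncoding RNAs NEAT1 and MALAT1 had 6.14, over the start, and 7.26, more than 1000 nt downstream of it.

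Whether a gene had a listed peak was next set against its expression in DLD1-W13CM. These are libraries of other cultures than the pull-down, and in bulk RNA fewer transcripts per cell and fewer expressing cells cannot be told apart. The cells carried the marks of colon epithelium: 9 of 10 epithelial markers had at least 1 FPKM, CEACAM5 being below it at 0.848. Of those 9, 7 had a peak, near the 75.4% of all protein-coding genes at 1 FPKM or more. Their enrichments ran from KRT20 at 4.74 to KRT19 at 28.5. The expression table listed 3 of 10 fibroblast markers and 0 reached 1 FPKM, the highest being VIM at 0.489, and 0 had a peak. Of all protein-coding genes, 5.23% above 0 and below 0.1 FPKM and 31.6% at 0.3 to 1 FPKM had a peak. Of the leukocyte markers, CD14 (1.17) and LYZ (1.07) were just above 1 FPKM, and neither had a peak. No conclusion about peaks is drawn from these few markers.

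At 1 FPKM or more, 8308 of 14401 genes had a listed peak, which is 57.7%. Among protein-coding genes it was 7790 of 10335 (75.4%) and among all other genes 518 of 4066 (12.7%). Weighted to the FPKM of the coding genes in 10 bins, the noncoding share was 12.9%, a gap of 62.4 percentage points at matched FPKM. FPKM matches the expression of the noncoding genes loosely. They hold 1697 antisense RNAs and 681 processed pseudogenes, some of whose reads cannot be told apart from those of opposite-strand or parent genes. They also hold the small RNA genes given below. Whether reads of the 107 transcribed unprocessed pseudogenes belong in part to similar genes was not tested. The coding share rose from 5.23% of 765 genes above 0 and below 0.1 FPKM to 31.6% at 0.3 to 1, 60.8% at 1 to 3, 77.4% at 3 to 10 and 84.2% at 10 to 30. It was 84.7% of 691 genes at 30 to 100 FPKM and 79.2% of 106 at 100 to 300. The noncoding share stayed between 10.2% and 16% from 0.3 to 100 FPKM. By type, at 1 FPKM or more, 44.9% of 107 transcribed unprocessed pseudogenes, 26.9% of 375 long intergenic RNAs and 16.1% of 1697 antisense RNAs had a peak, but only 2.2% of 681 processed pseudogenes. None of 116 small nucleolar RNAs, 130 microRNA genes and 179 miscellaneous RNAs of the expression table had one, which with exact 95% intervals allows shares of up to 3.13%, 2.8% and 2.04%. Those intervals count genes only. The narrowest listed peak was 102 nt wide, and whether these short genes could hold a listed peak was not tested, so no conclusion is drawn from the zero counts.

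**Figure D4:**
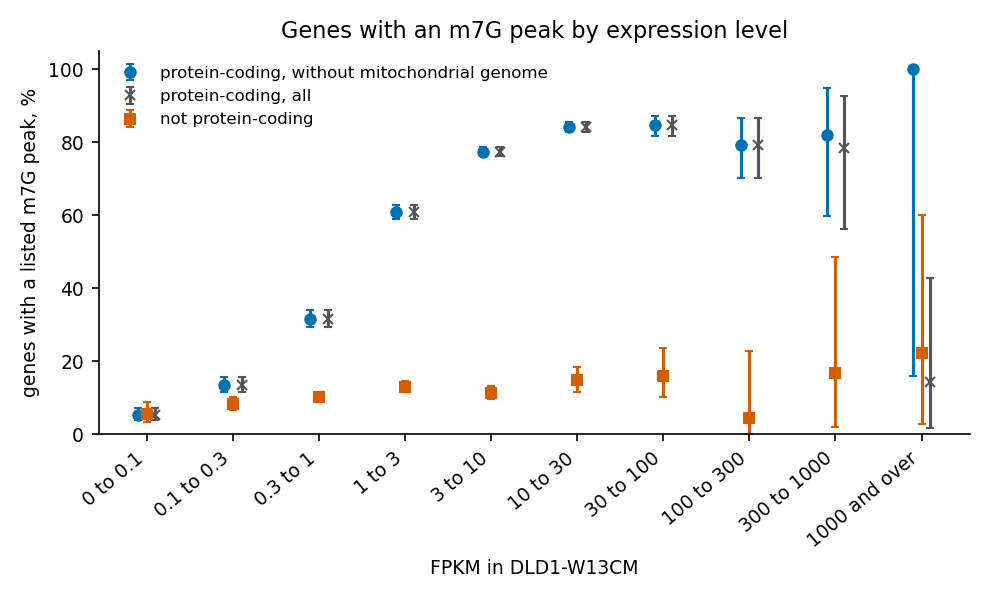
Percent of genes with a listed m7G peak by FPKM in DLD1-W13CM, for protein-coding genes without the mitochondrial genome (circles), all protein-coding genes (crosses) and all other genes (squares); bars are exact 95% binomial intervals that count genes only. Coding genes reach 84.7% at 30 to 100 FPKM, and the crosses drop to 14.3% at 1000 and over, where 12 of 14 genes are mitochondrial.

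The mRNAs of the mitochondrial genome, among the most abundant in the table, had no listed peak. Of 13, 0 had a peak, which allows a share of up to 24.7% (exact interval that counts genes as if independent). They ran from 570 to 10399 FPKM, with a median of 5654, and together made up 33.7% of the summed FPKM of protein-coding genes. No peak lay on the mitochondrial chromosome at all. The sources used here do not give whether the peak calling covered that chromosome. Of the 14 coding genes at 1000 FPKM or more, 12 were mitochondrial, and the other 2, the chemokine CXCL5 (1668 FPKM) and the ferritin heavy chain FTH1 (1056), both had a peak, with enrichments of 20.3 and 4.4.

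Other highly expressed genes were divided. The 10 nuclear coding genes of highest FPKM without a peak were EEF2 at 546, TUBB at 450, ENO1 at 356, FAT1 at 324, RPS6 and PKM at 231 each, UBB and RPL7A at 223 each, RPSA at 176 and BEST1 at 174. They hold a translation elongation factor, a tubulin, the glycolytic enzymes ENO1 and PKM, and 3 ribosomal proteins. Those of highest FPKM with a peak, after CXCL5 and FTH1, were EEF1A1 (enrichment 4.69), ACTB (18.2), GAPDH (6.95), KRT18 (15.2), KRT8 (23.3), HSP90AB1 (1.44), TMSB10 (5.75) and ACTG1 (13.4). Of these 10, 5 reached 10-fold enrichment, which is near the 59.7% of all peaks that did. HSP90AB1, a cytosolic chaperone at 1199 FPKM in control input and 1189 in knockdown input, had its listed peak in coding sequence 3841 nt downstream of the start. The GAPDH peak was weakly called: its log10 FDR was -0.9, an FDR above 0.05. It began upstream of the start, with no block over it.

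The start regions of coding genes with and without a peak differed little in the few features compared: GC content, the motifs and a TOP-like start. The promoter window holds 250 bases before the start and 50 after, and motifs were counted on either strand. At matched FPKM, the mean GC content of the promoter window was 65.2% in 6488 genes with a peak and 64.2% in the 2080 without, and it was higher with a peak in 9 of 10 bins. GGAGG was present in 86.8% and 85.4% of the windows, GAGGT in 46.4% and 47.0%, AAGGT in 28.0% and 29.7%, and a TOP-like start in 5.70% and 6.49%. The geometric mean length of the gene was 28421 nt with a peak and 30727 nt without.

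Among genes that decode and make proteins, the cytosolic ribosomal proteins stood low. Of 79, all at 1 FPKM or more, 53 had a peak, where the share of coding genes in the same FPKM bins would give 65.3, and 20 of the 53 (37.7%, against 59.7% of all peaks) reached 10-fold, with a median of 7.79. The highest of the 10 bins starts at 23.2 FPKM and has no upper limit, so it matches the most expressed genes loosely here and in the lists below. RPL35A had 59.6 and RPS3A 47.2, both over the start, while RPL28 had 1.46. RPL27 followed among those over the start, at 39.6. The annotated starts of these 3 in GRCh38.p14, at chr3:197950180-197950209, chr4:151099618-151099647 and chr17:42998409-42998438 (all plus strand), are shown as above, capitals from the start on: RPL35A begins with 8 pyrimidines, RPS3A with 7 and RPL27 with 0.
RPL35A: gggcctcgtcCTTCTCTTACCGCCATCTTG
RPS3A: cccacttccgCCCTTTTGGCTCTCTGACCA
RPL27: gtgaaaggttAGCGGAAGTGTCCTTCTTTC
EEF2, printed earlier and without a peak, also begins with 7 pyrimidines. The mitochondrial ribosomal proteins, made from nuclear genes, had 58 of 76 with a peak (60.6 from the bins) and a median of 14.2, from MRPL33 at 1.95 to MRPS35 at 75. The MRPL33 peak had a log10 FDR of -1.2, an FDR above 0.05. Translation factors had 31 of 38 (31.4 from the bins) and a median of 11.8, from EIF4G1 at 1.3 to EEF1B2, an exchange factor of eEF1A, at 90.4. The tRNA synthetases had 18 of 20 (16.7 from the bins), a median of 17.1 and 13 at 10-fold or more (72.2%, against 59.7% of all peaks), led by the glycine enzyme GARS at 80.4.

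RNA-processing genes split between 2 patterns. The spliceosome core proteins had 36 of 41 genes with a peak (33.6 from the bins) and the highest median of the lists, 19.05, with 24 at 10-fold or more (66.7%, near the 59.7% of all peaks); SNRPB2 at 192 and LSM3 at 61.6 led, and SNRNP70 was lowest at 1.61. The heterogeneous nuclear ribonucleoproteins and SR proteins had 26 of 32 (26.6 from the bins) but a median of 5.67. Of their 26 peaks, 11 lay more than 1000 nt downstream of the start and 10 covered it, and the 10 over the start had a median of 16.3. HNRNPUL1 at 37.7 and SRSF5 at 28.7 were the highest.

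The replication-dependent histones, short intronless genes used in S phase, had peaks in 41 of 45 genes at 1 FPKM or more (33.5 from the bins), and 46 peaks with the genes below it. Their median of 3.635 was the lowest of the lists and 6 of 46 reached 10-fold, against 59.7% of all peaks. Of the 46 peaks, 41 were annotated to coding sequence, 10 covered the start and 0 lay more than 1000 nt from it. The 10 over the start had a median of 7.515. HIST1H4I at 25.3 was the highest and HIST1H3J at 1.3 the lowest. Their input was high, with a median control FPKM of 131 over the peaks. In DLD1-W13CM, from which the bins were made, the median was 5.15 over the genes at 1 FPKM or more. The 33.5 from the bins is therefore not matched to expression in the cells of the pull-down, and no excess of peaks is read from it.

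Respiratory chain subunits of the nucleus had 57 of 72 with a peak (57.5 from the bins) and a median of 12.75, headed by ATP5C1; NDUFB3 followed at 39.7 and NDUFS7 was lowest at 1.8. Proteasome subunits had 23 of 34 (27.2 from the bins) and a median of 10.7. Cytosolic and endoplasmic reticulum chaperones had 29 of 30 (24.9 from the bins) and a median of 18.7, with the chaperonin subunit CCT4 at 46.2. Proliferation genes had 31 of 32 (26.7 from the bins) and a median of 15.8, with the survivin gene BIRC5 at 104 and thymidylate synthase, TYMS, at 92.3, whereas MKI67 had 1.31. Cholesterol synthesis genes had 18 of 23 (17.8 from the bins) and a median of 18.55, from the regulator SREBF2 at 1.37 to squalene synthase, FDFT1, at 51.6. Glycolysis genes had the smallest share after the mitochondrial mRNAs, 8 of 17 where the bins would give 13.98; TPI1 had 44.7 and PGK1 38.5, and the hexokinases HK1 and HK2 had 1.75 and 1.51.

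Inducible genes lay near the middle of all peaks. Chemokines and other secreted factors of senescent cells had 13 of 18 with a peak (14.6 from the bins) and a median of 11.65, with CXCL16 at 36.5, CXCL1 at 26.7 and GDF15 at 1.35. CXCL1 had 42.7 FPKM in control input and 8.10 in knockdown input. Immediate early and ERK feedback genes had 20 of 23 (18.8 from the bins) and a median of 10.04, from EGR1, whose peak of 1.88 lay in the 3′ UTR, to KLF10 at 52.1. The small nucleolar RNA host and other long noncoding genes had 17 of 22 with a peak and a median of 9.26. The share of noncoding genes in the same bins would give 2.93. That share pools types with few peaks (2.2% of 681 processed pseudogenes) and types with more (26.9% of 375 long intergenic RNAs). The 2.93 is therefore not matched to gene type, and no excess of peaks is read from it.

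**Figure D5:**
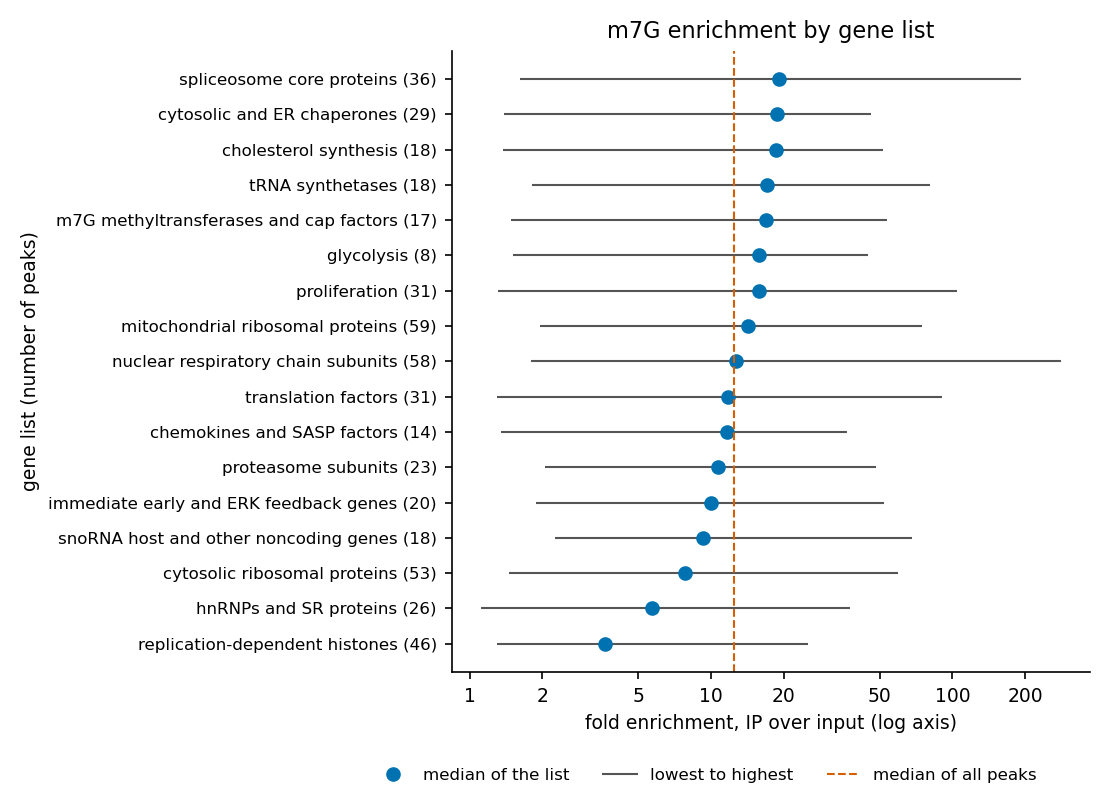
Fold enrichment (log axis) of 17 gene lists, with the number of peaks in parentheses, the median as a point and a line from the lowest to the highest member; the dashed line is the median of all peaks, 12.4. Medians run from 3.635 in histones to 19.05 in spliceosome core proteins, and every list has members below 3.

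The m7G writers and cap factors had 16 of 20 genes with a peak (15.5 from the bins) and a median of 16.9 over 17 peaks. The capping enzyme RNGTT had 53.6, over the start, and EIF4E3, a cap-binding relative of eIF4E, 31.3, more than 1000 nt downstream. The cap-binding complex subunit NCBP2 had 1.82 and the cap trimethylase TGS1 1.49, both also more than 1000 nt downstream. The TGS1 peak had a log10 FDR of -1.06, an FDR above 0.05. METTL1 itself had a peak of 31.3 in its 5′ UTR whose 5′ edge lay at -688 nt, upstream of the RefSeq start, with no block over it, and input of 5.80 FPKM in control and 3.28 in knockdown cells. Its partner WDR4 had a peak of 4.03 at 328 nt downstream, with 13.03 FPKM in control and 15.6 in knockdown input.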

How the data were processed

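Libraries were prepared from TRIzol RNA with the TruSeq RNA chemistry of Illumina, per the labels' protocols. Tools in the submitters' processing notes, given with no role, are HISAT2 2.1.0, HOMER 4.10.4, cutadapt 2.5, SAMtools 1.10, featureCounts 1.6.3 and DESeq2, and the builds GRCm38, GRCh38 and hg38. The sources used here name no peak caller. The authors deposited expression as FPKM; that unit of the peak table's input columns was inferred from their values. For each peak the authors deposited the fold enrichment, which is the IP to input ratio, per the file headers. They also deposited its p-value and FDR, read here as log10 although their range made the unit a score, and a log2 change between the lines, of which the log10 FDR alone was used, as a filter. Depth of the IP libraries, IP values per line and library sizes were not analysed here, and the deposited FPKM carry no error, so no interval of an enrichment is given.

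Peak width was summed over blocks. Starts were those of the RefSeq promoter table (GRCh38.p14, 7418 peaks) or, where a gene had no entry there, the outer end of the RefSeq gene (1693 peaks); 9111 of 9450 peaks (96.4%) had one. Of the protein-coding genes at 1 FPKM or more, 8568 of 10335 (82.9%) had a promoter entry. Genes were compared in 10 FPKM bins of equal size. The matched difference and the median intervals were tested on simulated data. Python 3.11.15, pandas 2.3.3, SciPy 1.17.1 and matplotlib 3.10.9 were used. The members, the 18 gene lists and the tests were chosen with earlier results of these data known. Named were the 10 highest and 5 lowest enrichments, the 5 highest by location and gene type, the 5 widest peaks, the 10 most expressed coding genes with and without a peak, METTL1, WDR4, cell type markers and the 2 highest and lowest peaks of each list, of which 1 is not reported here. The small RNA, NEAT1, MALAT1, POLR2M and mitochondrial values were named after they were seen. Alternatives are given in the closing section.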

Additional observations from a re-analysis of the deposited data

How the results depend on the processing

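No paired analysis was possible because each group held 1 library and no test was made. A setting is said to move a median where it leaves the exact 95% interval of the main value, which counts peaks only. With control input of at least 10 FPKM the median was 16.6 in 5′ UTRs, 8.945 in coding sequence, 8.005 in exons, 2.44 in 3′ UTRs, 13 in protein-coding genes, 9.155 in antisense RNAs and 5.83 in long intergenic RNAs. With single-block peaks it was 11.95 in 5′ UTRs, 8.44 in coding sequence, 8.87 in exons, 9.93 in protein-coding genes and 9.43 in antisense RNAs. With a log10 FDR of -10 or lower it was 19.6 in 5′ UTRs, 14.9 in coding sequence, 15.3 in exons and 6.865 in 3′ UTRs, and by type 17.6 in protein-coding genes, 16.4 in antisense RNAs, 11.9 in long intergenic RNAs, 21.4 in transcribed unprocessed pseudogenes, 16.25 in processed transcripts and 16.3 in transcribed processed pseudogenes. That filter is on the enrichment's own FDR. Control input of at least 1 FPKM and leaving out peaks whose m7G change had an FDR under 0.05 moved none of these medians.

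The following were added after the data were seen. Over the start only, medians were 17.1 in 5′ UTRs, 16.8 in coding sequence, 14.9 in exons and 17.5 in 3′ UTRs; more than 1000 nt downstream they were 9.93, 2.75 and 3.51 in the former 3. Without peaks shared with another gene, exons had 9.205 and the other locations and types stayed within their intervals. With outer gene ends as starts, the median was 9.405 at 251 to 1000 nt and 4.22 beyond.

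Spearman's correlation between width and enrichment was 0.43 within 5′ UTRs, 0.35 within 3′ UTRs and 0.34 within start codons. The correlation of enrichment with control FPKM was -0.033 at 1 FPKM or more, 0.13 within 5′ UTRs, -0.14 within coding sequence and within exons (-0.144 and -0.135), -0.44 within 3′ UTRs and -0.20 within start codons. The share of genes with a peak was 60.8%, 77.4%, 84.2% and 84.7% from 1 to 100 FPKM in protein-coding genes alone, against 38.7%, 62.7%, 73.9% and 74.1% in all genes, and 60.1% at 3 to 10 FPKM with bins by S-CAFs-w13. The coding minus noncoding difference was 49.8 percentage points over genes above 0 FPKM and 69.1 at 5 FPKM or more. The difference in GGAGG was 1.43 percentage points over the whole window and -0.83 in the 50 bases after the start. At 20-fold 2555 peaks remained and at 5-fold 7721. The causes were not tested.

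Depth of the IP libraries is unknown here, and a gene without a listed peak is not shown to lack m7G. With 1 library per group, none of these values can be set against variation between cultures.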

Other observations

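The deposited enrichments were not spread evenly along the scale. Of the 6420 values from 5 to 30, 53.6% were whole multiples of 0.4965 within their rounding, where 14.3% of the scale lies within rounding of such a multiple. The share was 77.8% among peaks in the lowest quintile of control input and 29% in the highest, with 61.8%, 49.0% and 41.0% between. The step was chosen after the values were seen, as the one that took the most of them.

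Of 236 pairs of peaks on opposite strands that shared at least 50% of the shorter peak, 80.5% had enrichments within 2-fold of each other. Peaks with such a partner had a median of 14.55, against 12.1 for peaks that shared no such region. Peaks of a single block, 3896 in all, had a median enrichment of 9.93, those of 2 blocks 13.6, those of 3 blocks 15.6 and those of 4 blocks 16.1. At 100 FPKM or more in control input, 241 peaks had a median of 10.8, and the 1055 peaks under 1 FPKM one of 10.4.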
